A study of Gallus gallus with 4 samples.

Results

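The RAB small GTPases were described in PR9692, a line of chicken sarcoma cells, carrying either a control short hairpin RNA (shRNA) or one against HOPX, the gene of a small homeodomain protein that does not bind DNA itself. The members were all probe sets whose gene symbol in the platform's annotation is RAB followed by a number and at most a letter and a digit. This rule found 95 of the 38535 probe sets of the array, which belong to 50 of its 13009 gene symbols. A probe set is a group of short probes designed for a transcript, though some probe sets can match more than 1. Of the 50 genes, 24 have a single probe set. Of the 50 genes, 48 were found by their gene identifier in the RefSeq table of the assembly GRCg7b, the exceptions being RAB39A and RAB44. The symbol RAB41 covers 2 gene identifiers on this platform, and RefSeq lists RAB1A as another name of the chicken gene called RAB1B here. Relatives under longer names, such as the RAB11 family interacting proteins, are not members.

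Both groups were PR9692 cells of chicken strain CC.R1 that had been stably transfected, one with a control shRNA and the other with an anti-HOPX shRNA, and both were grown at 40 °C. In the series, cells with the control shRNA are called metastatic and those with the anti-HOPX shRNA non-metastatic. Each form was measured on 2 Affymetrix chicken arrays, labelled as biological replicates. Separate cultures are not named in the labels, nor is it said if a form was 1 clone or a pool, so the p-values measure the spread between these arrays only, and differences that arose with the selection of the transfected cells cannot be told apart from those of the shRNA.

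RAB proteins switch between a GDP-bound state, held in the cytosol by GDP dissociation inhibitors, and a GTP-bound state on a membrane. Exchange factors load GTP, GTPase-activating proteins end the active state, and effectors that bind the GTP form tether, move or fuse vesicles. Each RAB marks its own compartments, so the family is commonly ordered by route: uptake into early endosomes, recycling to the cell surface, delivery to lysosomes, transport between endoplasmic reticulum (ER) and Golgi, and secretion. In tumour cells these routes carry integrins, growth factor receptors and matrix proteases to and from the surface. Many RABs serve more than one route, and each was placed here in 1.

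Array values are given as deposited, as log2 after GCRMA, so a difference of 1 is a 2-fold change. A positive difference means higher in anti-HOPX cells. The medians of the 4 arrays ran from 3.12 to 3.15, and over the tested probe sets Pearson's r was 0.992 between the control arrays, 0.985 between the anti-HOPX arrays and 0.954 to 0.959 between forms. The targeted gene, HOPX, read 3.23 and 3.72 with the control shRNA against 3.21 and 3.54 with the anti-HOPX shRNA in its brighter probe set, near the background in both forms, so it did not serve as a check of the labels. Of 10 mesenchymal marker genes 8 had a mean of at least 4, VIM and FN1 among them, whereas 0 of 2 epithelial, 1 of 4 endothelial, 0 of 4 muscle, 1 of 4 neural and 1 of 3 blood markers did. These are the listed markers found by gene symbol. The keratins of the epithelial list and the globins of the blood list were not found, so those lists are short. The blood marker above 4 was the transcription factor SPI1, at 8.26 and 8.07 with the control shRNA against 8.51 and 8.90 with the anti-HOPX shRNA, whereas PTPRC, the pan-leukocyte marker, read at most 2.80. Of the mesenchymal markers COL1A1 was higher in the anti-HOPX cells, at 12.97 and 12.76 against 11.16 and 11.11 (limma adjusted p = 0.0020), the 1 call among the 8 tested. COL1A2, which was too faint to be tested, lay the other way at 2.79 and 2.39 against 4.16 and 5.36, PDGFRB was at 8.16 and 7.79 against 7.10 and 7.10 (limma adjusted p = 0.061), and TNC overlapped between forms. The part of these markers in the RAB differences was not tested.

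Of the 50 RAB genes, 37 had a mean over the 4 arrays of at least 4 and were tested, and 13 lay below it. Where a gene had several probe sets, the brightest over the 4 arrays stood for it. That choice can depend on the form in which a probe set is high, as it did for RAB31. RAB8A and RAB31 were higher and RAB15 was lower in the anti-HOPX cells at an adjusted p under 0.05 (limma, Benjamini-Hochberg over the 14851 tested probe sets), and 34 did not pass. The 2 higher genes are 5.41% of the tested RAB genes, against 3.63% of the 7691 genes tested on the array, and the 1 lower gene is 2.70%, against 5.24%. The RAB genes were thus called about as often as genes in general. Their median difference was 0.06, against 0.02 for all genes, and their median absolute difference was 0.21, against 0.27. An unadjusted p under 0.05 was reached by 12 of the 37, or 32.4%, against 27.7% of all genes.

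Without overlap between forms, 13 RAB genes were higher and 8 lower, which is 56.8% of those tested, against 30% higher and 28.2% lower for all genes. By the 95% interval of the limma fit, which is not adjusted for the number of genes, the difference of 30 of the 34 RAB genes that did not pass lay within 1 either way. In the brightest probe sets of these 30 genes a change of more than 2-fold was therefore outside the interval. The same held for 5418 of the 7009 tested genes of the array that did not pass. Dimmer probe sets of some of the 30 reached farther, as for RAB30 (95% interval 0.48 to 1.67), RAB41 (-0.08 to 1.48, under its second gene identifier) and RAB40B (-1.20 to -0.17). Only RAB15 differed by 1 or more in its brightest probe set, which is 2.70% of the tested RAB genes, against 7.98% of all genes.

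**Figure D1:**
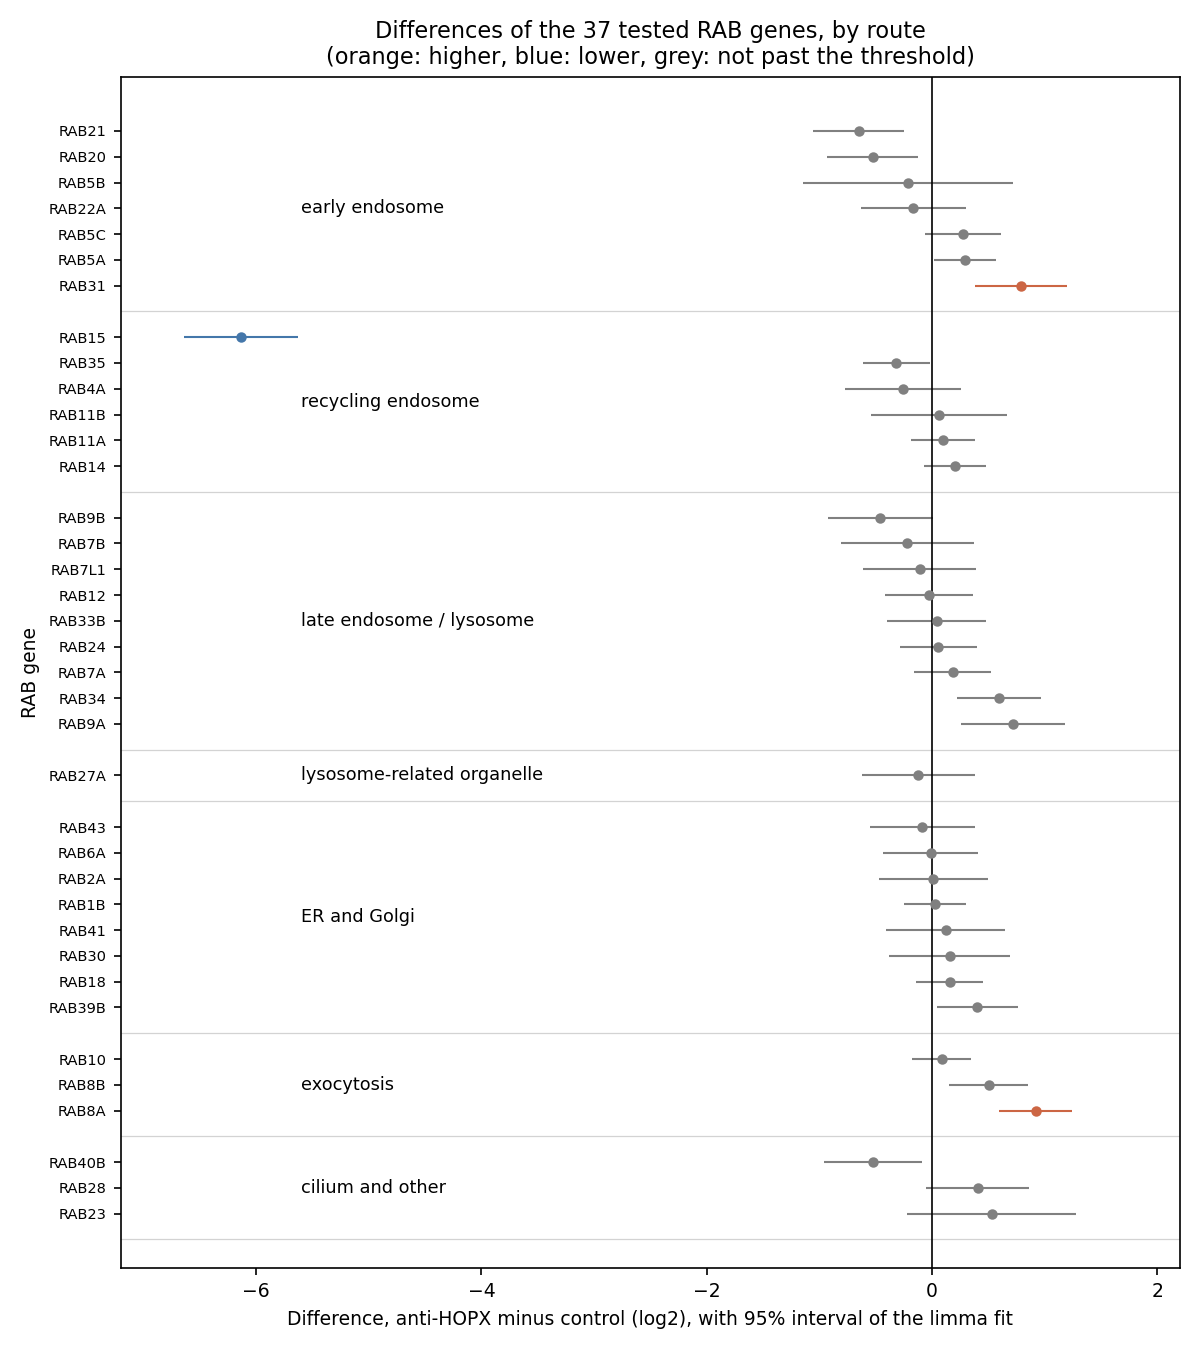
Differences of the 37 tested RAB genes, anti-HOPX minus control, on the log2 scale, grouped by route; points are the limma estimates from 2 arrays per form and bars their 95% intervals. RAB15 stands alone at -6.14, and RAB8A and RAB31 are the 2 genes past the threshold on the higher side.

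The recycling RABs held the largest change of the family. RAB15, which regulates the passage of internalised receptors through early and recycling endosomes in mammalian cells, read 8.35 and 8.59 with the control shRNA against 2.30 and 2.37 with the anti-HOPX shRNA. Both anti-HOPX values lie in the range of silent probe sets, far from both control values. RAB15 fell by 6.14 on the log2 scale (SE 0.20, 95% interval -6.64 to -5.63, limma adjusted p = 3.6e-04). It was in the fit only through its control arrays, and with faint probe sets kept it still passed (limma adjusted p = 0.0057). Since values under 4 are dominated by background, the fold is given as a bound with such values raised to 4, and it was at least 22.2-fold lower. In RNA from whole cultures, fewer cells with the transcript and less of it per cell cannot be told apart. RAB15 has 1 probe set on this array, so no second measurement of the gene was at hand. It passed in every alternative setting in which it was tested, including without each array in turn, with differences from -6.26 to -6.01 and limma adjusted p from 1.1e-06 to 0.011.

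The other 5 recycling RABs did not pass. With 6 genes, 1 call is 16.7%, beside the 5.24% of all genes that were lower. An unadjusted p under 0.05 was reached by 2 of the 6 (33.3%), beside 27.7% of all genes. RAB35, which acts in fast recycling from the plasma membrane's endosomes, read 10.84 and 10.86 with the control shRNA against 10.52 and 10.55 with the anti-HOPX shRNA, lower by a small amount without overlap (-0.32, SE 0.12, limma adjusted p = 0.17). RAB4A, the other RAB of fast recycling, differed by -0.25, and its arrays did not overlap either (limma adjusted p = 0.50). RAB11A and RAB11B, which define the slower perinuclear recycling endosome, differed by 0.10 and 0.06. For RAB11A the 95% interval ran from -0.18 to 0.38. RAB14, which works between the trans-Golgi network and endosomes, differed by 0.21, from 12.14 and 12.05 to 12.36 and 12.24 (limma adjusted p = 0.31).

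Of the 3 tested secretory RABs 1 rose in limma, or 33.3%, beside the 3.63% of all genes that were higher. An unadjusted p under 0.05 was reached by 2 of the 3 (66.7%), beside 27.7% of all genes. RAB8A was the gene that rose. It directs vesicles from the trans-Golgi network and recycling endosomes to the plasma membrane and to the primary cilium. Its brightest probe set read 11.11 and 11.25 with the control shRNA against 12.20 and 12.00 with the anti-HOPX shRNA. RAB8A was thus higher by 0.92 (SE 0.13, 95% interval 0.60 to 1.25, limma adjusted p = 0.019), or 1.89-fold, on both anti-HOPX arrays. The second tested probe set of RAB8A read 7.99 and 7.87 in control and 9.19 and 9.23 in anti-HOPX cells, a rise of 1.28 (SE 0.155, limma adjusted p = 0.013) or 2.43-fold. Another probe set, under the mean required for testing, read 3.75 and 3.04 against 4.32 and 4.30. The last 2 probe sets of RAB8A stayed under 4 on all arrays. The call of the brightest probe set was lost when faint probe sets were kept in the fit (limma adjusted p = 0.089). It was also lost without control replicate 1 (0.85) and without control replicate 2 (0.99). These fits take their spread from the anti-HOPX pair alone, whose median gap of 0.25 is above the 0.16 of the control pair. Without anti-HOPX replicate 1 the difference was 0.82, and without anti-HOPX replicate 2 it was 1.02.

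RAB8B, the close paralogue of RAB8A, lay in the same direction without passing. It read 10.73 and 10.47 with the control shRNA against 11.08 and 11.13 with the anti-HOPX shRNA, which differ by 0.50 (SE 0.14, limma adjusted p = 0.095). RAB8B passed with the replicate number as a block in the fit (limma adjusted p = 0.037), a pairing that the data do not show. With that block 18.2% of all tested probe sets passed, against 7.66% without it. A dimmer probe set of RAB8B gave 0.53 (limma adjusted p = 0.15), and 2 more stayed under 4. The forms did not overlap in any of the tested probe sets of RAB8A and RAB8B, as in 55.9% of all tested probe sets. RAB10, which shares effectors with RAB8 and carries cargo such as glucose transporters to the surface, differed by 0.09 (95% interval -0.17 to 0.35), with overlapping arrays between 12.93 and 13.13. RAB3B and RAB26, RABs of regulated granule secretion, read at most 2.30 on every array and were not tested.

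**Figure D2:**
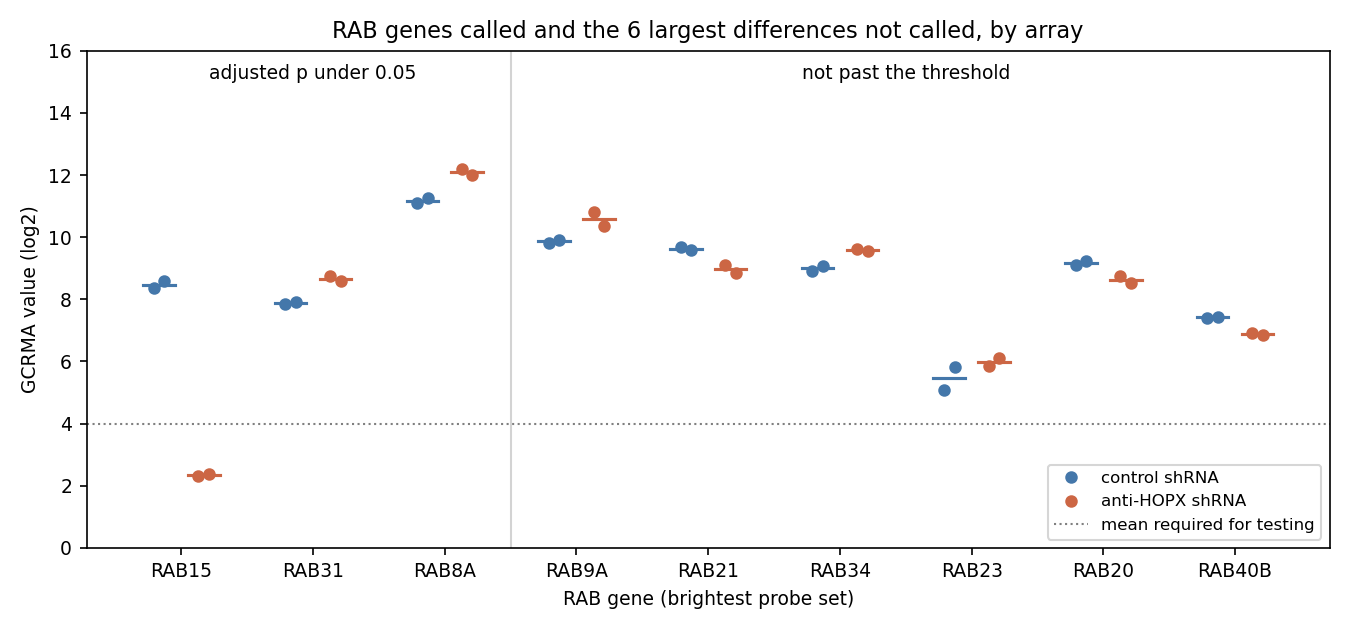
GCRMA values (log2) on each array for the 3 RAB genes past the threshold and the 6 with the largest differences among those that did not pass; points are arrays, short lines the mean of 2 arrays, and the dotted line is the mean of 4 required for testing. RAB15 drops from above 8 to under 3, whereas the other 8 genes move by less than 1.

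Of the 7 tested early endosomal RABs 1 rose and none fell in limma, and 4 of the 7 had an unadjusted p under 0.05, beside 27.7% of all genes. With 7 genes, 1 call is 14.3%, beside the 3.63% of all genes that were higher. RAB31, which works between the trans-Golgi network and endosomes and takes part in the traffic of the epidermal growth factor receptor, read 7.85 and 7.91 with the control shRNA against 8.75 and 8.58 with the anti-HOPX shRNA. RAB31 rose by 0.79 (SE 0.16, 95% interval 0.38 to 1.20, limma adjusted p = 0.049), or 1.73-fold, just inside the threshold. Its other tested probe set, of almost the same brightness, read 8.19 and 8.04 against 8.52 and 8.18 and did not pass (0.24, limma adjusted p = 0.50). This other probe set was the brighter on the control arrays (mean 8.11 against 7.88). Which of them stood for RAB31 therefore depended on the anti-HOPX arrays. The probe set that passed carries the suffix _s_at, which marks probes that can match more than one transcript, and the other does not. The call was also lost with faint probe sets kept in the fit (limma adjusted p = 0.15) and without an intensity trend in the spread (limma adjusted p = 0.055). It was lost as well without control replicate 1 (0.75), without control replicate 2 (0.82) and without anti-HOPX replicate 1 (0.70). The fits without a control array again take their spread from the anti-HOPX pair alone. Without anti-HOPX replicate 2 the difference was 0.87. With the mean over its tested probe sets RAB31 did not pass either.

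RAB21 and RAB20 lay lower without passing. RAB21, which binds integrin chains and drives their uptake, read 9.67 and 9.59 with the control shRNA against 9.11 and 8.84 with the anti-HOPX shRNA, which differ by -0.65 (SE 0.16, limma adjusted p = 0.074). A second probe set of RAB21 read 8.59 and 8.72 against 7.83 and 8.09 and gave almost the same difference, -0.69 (limma adjusted p = 0.079), while its dimmest one differed by -0.14 with overlapping arrays. With the replicate number as a block RAB21 passed (limma adjusted p = 0.022), and with faint probe sets kept it did not (limma adjusted p = 0.22). It also passed when anti-HOPX replicate 1 was left out (-0.78). That fit has 1 anti-HOPX array and takes its spread from the control pair, whose median gap of 0.16 is under the 0.25 of the anti-HOPX pair. RAB20, which acts on maturing phagosomes and endosomes, read 9.09 and 9.23 with the control shRNA against 8.73 and 8.54 with the anti-HOPX shRNA, which differ by -0.53 (SE 0.16, limma adjusted p = 0.12).

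The RAB5 proteins, which drive the fusion of early endosomes, gave no call. RAB5A read 12.69 and 12.74 with the control shRNA against 12.91 and 13.10 with the anti-HOPX shRNA, and RAB5C differed by 0.27, so both lay slightly higher without overlap (limma adjusted p of 0.18 and 0.27). RAB5B read 5.25 and 4.63 against 4.29 and 5.17. Its anti-HOPX arrays lay 0.87 apart, the widest gap between replicates among the brightest probe sets of the tested RAB genes, and its interval, -1.14 to 0.72, left a 2-fold fall inside. RAB22A, which works on early endosomes and in recycling, differed by -0.17 with overlapping arrays. RAB17, known from transcytosis in mammalian epithelial cells, read at most 2.04.

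None of the 9 tested late endosomal and lysosomal RABs passed in limma, and 2 of the 9 (22.2%) had an unadjusted p under 0.05, beside 27.7% of all genes. RAB9A, which returns mannose 6-phosphate receptors from late endosomes to the Golgi, was farthest from 0. It read 9.82 and 9.92 with the control shRNA against 10.81 and 10.36 with the anti-HOPX shRNA, which differ by 0.72 (SE 0.19, limma adjusted p = 0.081). Its second probe set overlapped between forms, at 5.74 and 5.98 against 6.76 and 5.68. With the replicate number as a block RAB9A passed (limma adjusted p = 0.019), and with faint probe sets kept it did not (limma adjusted p = 0.25). It also passed when anti-HOPX replicate 2 was left out (0.94), again with the spread of the control pair alone. Its paralogue RAB9B lay the other way, at 9.95 and 9.61 with the control shRNA against 9.18 and 9.46 with the anti-HOPX shRNA (-0.46, SE 0.19, limma adjusted p = 0.20). The difference between the paralogues was not tested.

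RAB34, which positions lysosomes and takes part in the early steps of cilium formation, read 8.91 and 9.08 with the control shRNA against 9.63 and 9.54 with the anti-HOPX shRNA. It was higher without overlap by 0.59 (SE 0.15), and missed the threshold (limma adjusted p = 0.077). With the replicate number as a block RAB34 passed (limma adjusted p = 0.034). RAB7A, the main RAB of transport to lysosomes, differed by 0.18 (95% interval -0.16 to 0.53), and its 2 tested probe sets gave nearly equal differences, from 0.18 to 0.20. RAB7B, which returns cargo from endosomes to the trans-Golgi network, differed by -0.22, with anti-HOPX arrays at 8.90 and 9.54 on either side of the control arrays. RAB7L1, known as RAB29 in mammals, and RAB12, which sends receptors to lysosomes, differed by -0.11 and -0.03. The RABs linked to autophagy, RAB24 and RAB33B, differed by 0.06 and 0.04, with overlapping arrays.

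The ER and Golgi RABs differed little between the forms in their brightest probe sets. All 8 tested genes lay between -0.09 and 0.40, with a median absolute difference of 0.10, and none passed in limma, with 1 of the 8 (12.5%) at an unadjusted p under 0.05, beside 27.7% of all genes. RAB1B, which is needed for transport from the ER to the Golgi, differed by 0.03 (95% interval -0.25 to 0.30), RAB2A of the ER to Golgi intermediate compartment by 0.01 and RAB6A, which carries Golgi membranes back to the ER and towards the surface, by -0.01. RAB2A has 5 tested probe sets, whose differences ran from -0.27 to 0.14. RAB39B, a Golgi-associated RAB, was the 1 under 0.05 unadjusted, at 9.17 and 9.10 with the control shRNA against 9.60 and 9.48 with the anti-HOPX shRNA (0.40, SE 0.14, limma adjusted p = 0.16). RAB18, of ER and lipid droplets, differed by 0.16, RAB43 of the Golgi by -0.09 and RAB41 by 0.12. The other RAB41 probe set, which belongs to the second gene identifier, read 5.00 and 4.90 against 5.23 and 6.06, higher without overlap by 0.70 and not past the threshold (limma adjusted p = 0.24).

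RAB30, which sits on the Golgi, gave unequal answers in its 2 tested probe sets. The brighter read 5.08 and 5.26 with the control shRNA against 5.48 and 5.17 with the anti-HOPX shRNA, with overlap (0.16, limma adjusted p = 0.71). The dimmer read 3.54 and 3.74 against 4.49 and 4.94, higher without overlap by 1.08 (limma adjusted p = 0.056), or at least 1.64-fold with values under 4 raised to 4. This dimmer probe set was in the fit only through its anti-HOPX arrays. With faint probe sets kept, its limma adjusted p was 0.14.

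The remaining tested members belong to the cilium, to ubiquitin ligases and to lysosome-related organelles, and none passed in limma, with 1 of the 4 at an unadjusted p under 0.05, beside 27.7% of all genes. RAB40B, whose SOCS box joins it to a cullin ubiquitin ligase, read 7.40 and 7.43 with the control shRNA against 6.93 and 6.86 with the anti-HOPX shRNA (-0.52, SE 0.17, limma adjusted p = 0.14), and its other probe set gave -0.68 (limma adjusted p = 0.11). Both probe sets of RAB40B were lower without overlap. Of all tested probe sets, 55.9% had no overlap in either direction. RAB23, a negative regulator of Hedgehog signalling, read 5.09 and 5.82 with the control shRNA against 5.85 and 6.12 with the anti-HOPX shRNA, so that control replicate 2 reached almost to the anti-HOPX values (0.53, SE 0.30, limma adjusted p = 0.33). RAB28, a RAB of cilia, differed by 0.40, from 7.02 and 7.05 to 7.55 and 7.33 (limma adjusted p = 0.24). RAB27A, which docks secretory lysosomes, melanosomes and exosome-forming endosomes, differed by -0.12, and its probe sets differed in sign.

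In their brightest probe sets the 13 RAB genes under the mean of 4 lay between 1.93 and 4.24 on all arrays, so their low values give only a limit of this array and say nothing about small changes. They were RAB3B, RAB10L, RAB17, RAB19, RAB26, RAB32, RAB33A, RAB36, RAB38, RAB39A, RAB40C, RAB42 and RAB44. RAB32 and RAB38, which supply melanosomes with pigment enzymes, read at most 3.82 and 2.37. In RAB19 control replicate 1 stood alone at 3.84, with the other 3 arrays between 2.33 and 2.40.

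Counted over probe sets, 59 of the 95 were tested, of which 3 were higher and 1 lower. That is 5.08% and 1.69% of them, against 3.12% and 4.54% of all tested probe sets. Of the 18 gene symbols with 2 or more tested probe sets, 16 had all differences of the same sign. RAB41 is among these 16, though its 2 probe sets belong to different gene identifiers. RAB2A and RAB27A were mixed, and no gene had calls in both directions. RAB8A was the only gene with 2 probe sets called.

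**Figure D3:**
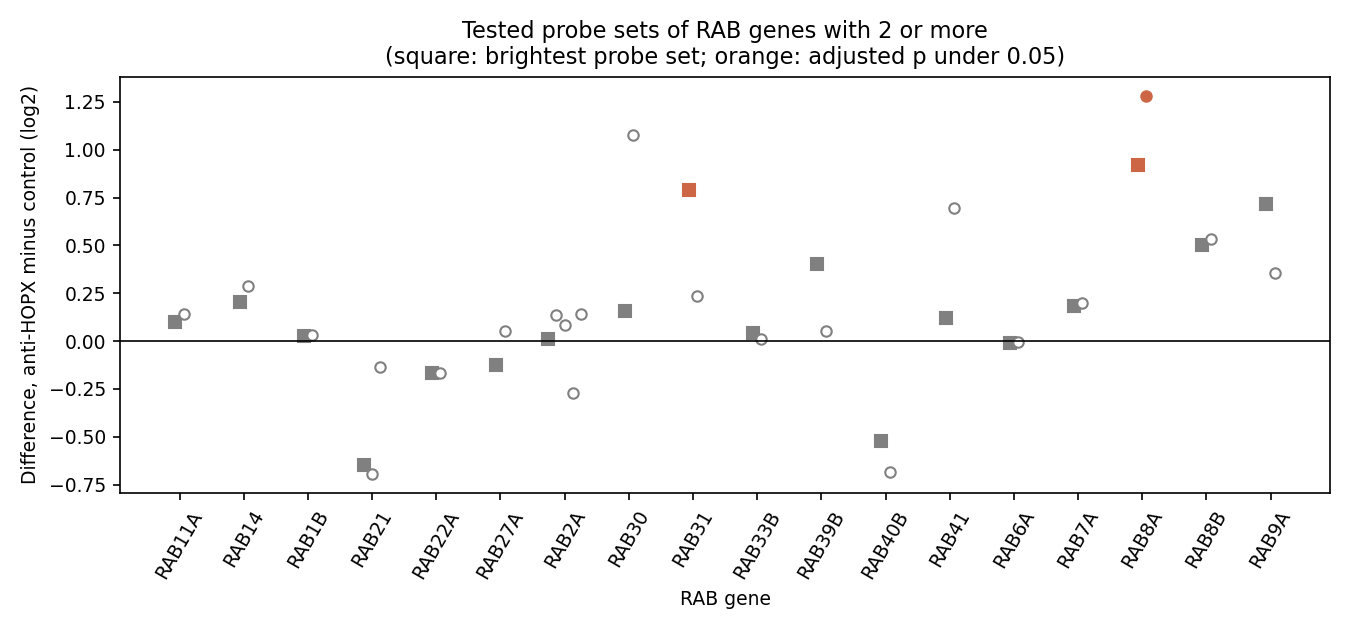
Differences (anti-HOPX minus control, log2) of every tested probe set of the 18 RAB genes with 2 or more; squares mark the brightest probe set and orange those past the threshold. Both probe sets of RAB8A are past it, against 1 of 2 for RAB31, and RAB30 and RAB41 show the widest gaps in which the dimmer probe set lies higher. The 2 probe sets of RAB41 belong to different gene identifiers.

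The proteins that load, unload and answer to RABs were followed in lists of known family members. Among the exchange factors 21 of 36 listed genes had a mean of at least 4 and were tested, of which 1 rose and 1 fell (median difference 0.16). Listed genes left out, here and in the lists below, were under this mean or were not found by gene symbol. That is 4.76% in each direction, near the 3.63% higher and 5.24% lower of all genes. At an unadjusted p under 0.05 were 4 of the 21 (19%), beside 27.7% of all genes. DENND6A, the exchange factor of RAB14, read 11.97 and 12.06 with the control shRNA against 10.61 and 10.62 with the anti-HOPX shRNA, a fall of 1.40 on the log2 scale (SE 0.11, limma adjusted p = 0.0034). Its next probe set (-0.30) was not past the threshold (limma adjusted p = 0.37). RIC1, which with RGP1 forms the complex that activates RAB6A, rose by 0.78 (limma adjusted p = 0.035), while DENND2A, an exchange factor of RAB9, differed by -0.74 and RCC1L, a mitochondrial protein that the list includes although it is not an established RAB exchange factor, by 0.79, neither past the threshold.

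Among the GTPase-activating proteins 27 of 42 were tested, of which 1 rose and 2 fell (median difference 0.14). That is 3.70% and 7.41%, against 3.63% and 5.24% of all genes. At an unadjusted p under 0.05 were 5 of the 27 (18.5%), beside 27.7% of all genes. TBC1D8 read 7.20 and 7.24 with the control shRNA against 5.01 and 5.07 with the anti-HOPX shRNA, and fell by 2.18 (limma adjusted p = 0.0041). A dimmer probe set of TBC1D8 fell by 1.55 (limma adjusted p = 0.023). TBC1D30, which acts on RAB8 in mammalian cells, read 4.71 and 5.66 with the control shRNA against 2.89 and 2.94 with the anti-HOPX shRNA, at least 2.27-fold lower with values under 4 raised to 4 (limma adjusted p = 0.023). TBC1D30 was in the fit only through its control arrays, and with faint probe sets kept it did not pass (limma adjusted p = 0.105). TBC1D2, which ends the active state of RAB7, rose by 1.01 (limma adjusted p = 0.034). TBC1D19 and TBC1D16 differed by 0.96 and 0.66 without passing.

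Of 39 tested effectors among 73 listed, 4 fell and 0 rose in limma, with a median difference of -0.20. The 4 are 10.3% of the effectors, beside the 5.24% of all genes that were lower. Below 0 were 26 of the 39, beside 3677 of all 7691 genes. An unadjusted p under 0.05 was reached by 15 of the 39 (38.5%), beside 27.7% of all genes. EEA1, the RAB5 effector that tethers early endosomes, read 8.46 and 9.18 on the control arrays and 7.33 on both anti-HOPX arrays, and fell by 1.49 (SE 0.27, limma adjusted p = 0.035). The next in brightness gave -1.02 (limma adjusted p = 0.11), and the dimmest, at 6.83 and 7.23 against 6.03 and 6.02, was also lower without passing (limma adjusted p = 0.053). RPH3AL, an effector of RAB3 and RAB27 in secretion, read 7.44 and 7.25 with the control shRNA against 5.69 and 4.48 with the anti-HOPX shRNA, a fall of 2.26 (limma adjusted p = 0.035). OPTN, the RAB8 effector optineurin, fell by 0.80, from 11.40 and 11.37 to 10.61 and 10.56 (limma adjusted p = 0.021), and RILPL2, a RILP-like protein linked to cilia, fell by 0.89 (limma adjusted p = 0.035). PLEKHM3 and PIK3R4, the latter a subunit of the lipid kinase complex that RAB5 recruits, differed by -1.18 and -0.84 without passing (limma adjusted p of 0.068 and 0.054).

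The general machinery gave 1 call. The list of prenylation and GDI genes includes those that attach the lipid anchor or keep RABs soluble, though not every member does so. Of its 8 tested genes none passed in limma. YIPF1 (0.53) and RABGGTB (0.52), the latter a subunit of the RAB prenylating enzyme, were farthest from 0. None of the 9 listed genes of the exocyst, the tether of secretory vesicles, passed, with EXOC3 at 0.46 and EXOC2 at 0.34. Of 9 tested TRAPP genes none did, with TRAPPC9 at 0.58 and TRAPPC12 at 0.45. At an unadjusted p under 0.05 were 2 of 8 prenylation and GDI genes, 1 of 9 exocyst genes and 2 of 9 TRAPP genes, each a smaller share than the 27.7% of all genes. In the list of HOPS and CORVET tethers 1 of 8 rose, VPS33B, which belongs to a related complex that binds RAB11. It read 8.94 and 8.79 with the control shRNA against 10.07 and 9.70 with the anti-HOPX shRNA, a rise of 1.02 (limma adjusted p = 0.034), and its list split into 4 genes above and 4 below 0. With 8 genes, 1 call is 12.5%, beside the 3.63% of all genes that were higher. An unadjusted p under 0.05 was reached by 2 of these 8 (25%), beside 27.7% of all genes. The shared subunits VPS16, VPS11 and VPS33A differed by 0.45, -0.29 and -0.30 and VPS41, which belongs to HOPS, by 0.37, each without overlap and without passing. Overlap between forms was absent in 75% of this list, beside 58.2% of all genes.

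In all, 10 of the 121 tested regulators, effectors and tethers passed, 3 higher (2.48%, against 3.63% of all genes) and 7 lower (5.79%, against 5.24%). They were thus called about as often as genes in general. Over all these lists 31 genes (25.6%) had an unadjusted p under 0.05, beside 27.7% of all genes. Nearly all of the 10 calls were kept when either anti-HOPX array was left out. By contrast, nearly all were lost without control replicate 1 and without control replicate 2. In these 2 fits the single control array was assumed to vary like the anti-HOPX pair, whose median gap of 0.25 is above the 0.16 of the control pair. Calls over all probe sets fell as well in these 2 fits. The differences themselves moved little for most of the 10, as for DENND6A (-1.45 and -1.36 against -1.40) and TBC1D8 (-2.20 and -2.16 against -2.18), and more for EEA1 (-1.85 and -1.13 against -1.49) and TBC1D30 (-2.75 and -1.79 against -2.27).

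**Figure D4:**
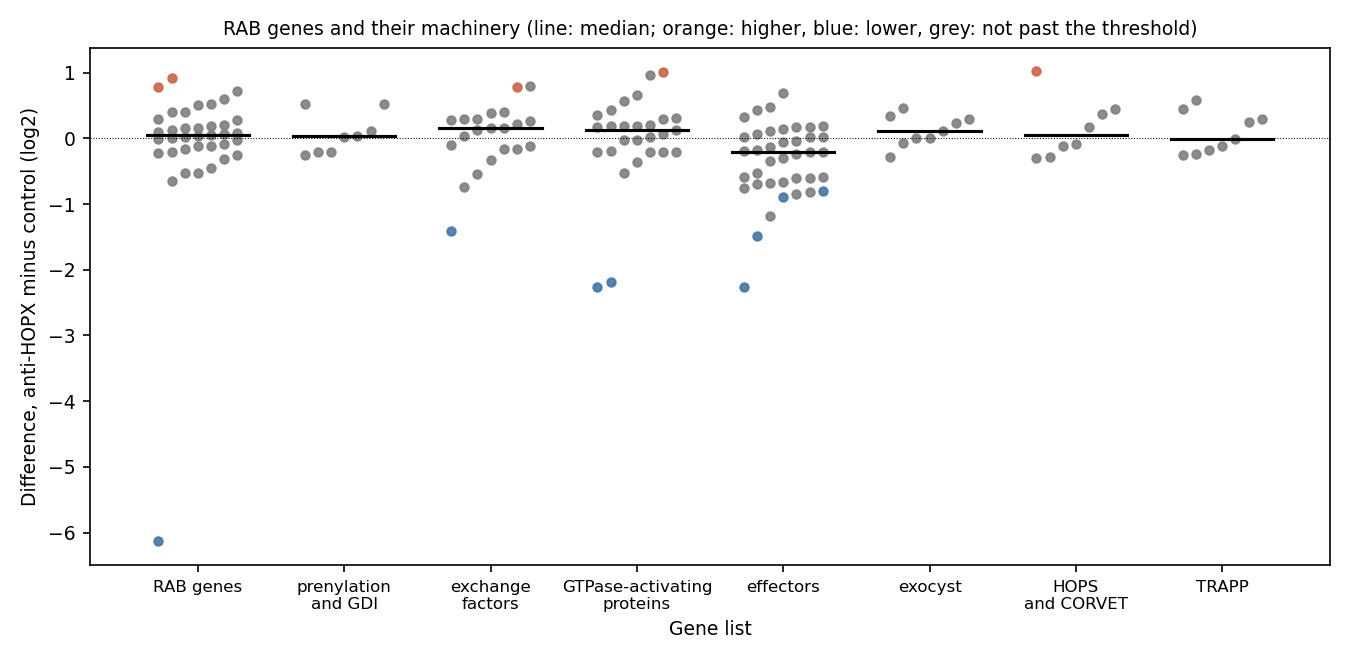
Differences (anti-HOPX minus control, log2) of the tested RAB genes and of 7 lists of RAB regulators, effectors and tethers; each point is a gene, lines are medians and colours mark genes past the threshold. The effector list has the lowest median, -0.20, with 4 genes lower and 0 higher past the threshold.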

How the data were processed

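RNA of 4 samples was measured on Affymetrix chicken arrays. The deposited values are log2, 1 per probe set and array. The authors' processing notes name GCRMA and Partek 6.4 without their roles, per the labels; GCRMA corrects background by probe sequence and normalises arrays to each other, which pulls silent probe sets to a floor. Scanner settings and detection calls were not used here. Control probe sets (96) were left out, and probe sets with a mean of at least 4 were kept (14851). The forms were compared with limma 3.58.1 in R 4.3.3 (lmFit, eBayes with an intensity trend, two-sided), with p-values adjusted by Benjamini-Hochberg over all kept probe sets and a prior of 3.54 beside 2 residual degrees of freedom. The procedure was tested on simulated data, in which nearly all changes of 2-fold or less and many larger ones were missed. Unlike the data, the simulation changed few probe sets and mixed the spreads across probe sets. Its share of misses therefore does not carry over to the reported fit. With 2 arrays per form, a gene that did not pass is not shown to be unchanged. Gene names come from the platform annotation, updated through RefSeq identifiers. All called RAB genes, then the 6 largest differences not called, were given in full. At most 4 called and 2 not called were named per list of regulators, effectors and tethers, apart from VPS11 and VPS33A, which were named as well. Members, lists and routes were chosen with earlier results of these data known. Alternatives changed the filter, spread model, normalisation, threshold, probe sets, replicate block and arrays. The number of arrays limits the precision.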

Additional observations from a re-analysis of the deposited data

How the results depend on the processing

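RAB15 passed in all alternatives that tested it; with a minimum mean of 6 it was not tested, being low in anti-HOPX cells, which left 0 RAB genes and 0 RAB probe sets lower. Over the 13 alternatives that used their brightest probe sets, RAB8A passed in 9 and RAB31 in 7, and no difference of the 9 RAB genes given in full changed sign. Without the filter on low values 0 RAB genes and 0 RAB probe sets were higher and 2 of the regulators and effectors passed. Requiring a 2-fold change left 0 genes and 1 probe set higher, and without the probe sets named _x_at, _s_at or _a_at 1 gene and 1 probe set were higher. Without an intensity trend, with the mean of a gene's probe sets, or with its second brightest tested probe set (chosen after seeing the data), 1 gene was higher. Leaving out each array in turn gave 0 to 3 genes higher and 1 to 2 lower, 0 to 4 probe sets higher and 1 to 2 lower, and 0 to 15 regulators and effectors. With the replicate block 5 genes were higher and 2 lower, 7 probe sets were higher and 3 lower, and 24 regulators and effectors passed. Over the whole array 2698 of 14851 probe sets passed with the block, or 18.2%, against 7.66% in the reported setting. The larger counts thus came with more calls among all probe sets. Deviations of same-numbered arrays correlated at 0.25 across probe sets, and with 2 numbers this does not show that they are pairs. Over all probe sets, 1138 passed in the reported setting, 274 without the filter on low values, 154 without control replicate 1 and 142 without control replicate 2. What limited the faint RAB genes was their signal, close to background.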

Other observations

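The chromosomal neighbours of the 3 called RAB genes were read from the gene order of the assembly GRCg7b, up to 5 protein-coding genes on each side, after the calls had been seen. Around RAB8A, 5 neighbours had a mean of at least 4 and were tested, and 3 of them were called higher in the anti-HOPX cells. KLF2, a transcription factor, was higher by 1.07 (limma adjusted p = 0.0100) and FAM32A by 0.74 (limma adjusted p = 0.026). PTPRS, a receptor tyrosine phosphatase, went from a mean of 3.02 to 5.61. For comparison, 3.63% of all genes were higher. PTPRS was in the fit only through its anti-HOPX arrays, its control mean being under 4. Its place among the 3 therefore depends on the filter that kept it. AP1M1, a subunit of the clathrin adaptor of the trans-Golgi network, differed by 0.75 (limma adjusted p = 0.057) and EPS15L1, an endocytic adaptor, by -1.24 (limma adjusted p = 0.12). Around RAB15, 0 of 4 tested neighbours passed in limma, and around RAB31, 0 of 6. The nearest tested neighbour of RAB15, FNTB, differed by -0.07, and CHURC1, on the other side, by 0.52 (limma adjusted p = 0.085). Whether the position of RAB8A bears on its level was not tested.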
